A study of Arabidopsis thaliana with 12 samples.

Results

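MCCA, IVD and ETFQO are 3 nuclear genes of Arabidopsis whose products act in mitochondria on the breakdown of leucine and on the passage of its electrons to ubiquinone. They were chosen by gene symbol, with earlier results of these data known. Each was read by 1 probe set that carried that gene alone (MCCA is AT1G03090, IVD is AT3G45300 and ETFQO is AT2G43400). They are 3 of the 13356 genes with such a probe set. The RNA came from whole seedlings, Col-0 in every group, grown in liquid medium with 1% sucrose to day 9 and then kept dark for 24 h and through the treatment. The 12 arrays formed 4 groups of 3: cultures given an equal volume of ethanol and harvested after 1 h, cultures given 10 µM oligomycin and harvested after 1 h, and the same pair harvested after 4 h. All of them, the ethanol controls included, had therefore been through the long dark period. The labels call the arrays of a group biological replicates without saying whether each was a separate flask, so the tests below measure the spread between these samples.

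Oligomycin blocks the proton channel of the mitochondrial ATP synthase. In leucine breakdown an aminotransferase and the branched-chain ketoacid dehydrogenase first turn leucine into isovaleryl-CoA. IVD, isovaleryl-CoA dehydrogenase, oxidises that compound and hands its electrons to the electron transfer flavoprotein (ETF), a dimer of the ETFALPHA and ETFBETA products. ETFQO, the ETF:ubiquinone oxidoreductase of the inner membrane, passes them on to ubiquinone and so into the respiratory chain. Methylcrotonyl-CoA carboxylase, built from the biotin-carrying subunit MCCA and the subunit MCCB, takes the carbon skeleton one step further towards acetyl-CoA. In plants this route is known for its induction in long darkness and sugar shortage, when amino acids serve as respiratory fuel.

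Values are array intensities on a linear scale, as mean ± SD (n = 3). Changes are differences of log2(intensity + 16) with the standard error (SE) of the limma fit, a scale on which dim genes change by less than their true ratio, and "rose" and "fell" mark an adjusted limma p under 0.05. An intensity compares samples for 1 gene and does not compare genes with each other. Arrays of a group correlated with r = 0.975 to 0.993 over all probe sets. The lowest correlations were with ethanol replicate 2 of 1 h, so results of that time are also given without it. The summed intensity of the 3 measured root markers of 9 listed (PYK10, EXPA7 and EXPA18) lay between 2665 and 2900 in ethanol at 4 h and between 1629 and 1702 in oligomycin, and between 2611 and 3200 in both treatments at 1 h. Taken singly, 2 of the 3 fell at 4 h and 1 was not called, beside 25.3% falls among all probe sets. RCA, Rubisco activase, the only measured leaf marker of 9, lay between 952.7 and 1166 in ethanol at 4 h and between 872 and 937.7 in oligomycin, without overlap (adjusted p = 0.0917), and between 973.1 and 1250 in both treatments at 1 h. ANX1, the only measured flower and pollen marker of 7, was at 6.0 or less. None of the 8 listed seed markers had a probe set of its own in the tables used here. The part of the root and leaf marker levels in the 4 h results below was not tested, and in whole seedlings fewer cells of a type and less RNA per cell cannot be told apart.

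MCCA was higher in oligomycin at both times, and its difference from ethanol grew with time. In ethanol at 1 h its intensities were 98.2, 109.5 and 99.9, and in oligomycin 186.5, 170.9 and 244.5. At 4 h they were 140.3, 136.4 and 89.1 in ethanol and 407.5, 448 and 436.3 in oligomycin. The treatments did not overlap at either time, and all 3 oligomycin arrays of 4 h stood above all of 1 h. MCCA rose from 103 ± 6.09 to 201 ± 38.8 at 1 h (log2 change 0.86 ± 0.15 SE, adjusted p = 0.00786) and from 122 ± 28.5 to 430.6 ± 20.8 at 4 h (1.72 ± 0.15, adjusted p = 2.77e-06). These means stood in ratios of 1.96 and 3.53. The effect of oligomycin itself was larger at 4 h than at 1 h, by 0.86 on the log2 scale (95% interval 0.38 to 1.34, adjusted p = 0.0164).

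IVD was also higher in oligomycin at both times. At 1 h the ethanol arrays read 96.5, 152.6 and 112.9, and the oligomycin arrays 203.8, 188.2 and 238.9. At 4 h the readings were 171.4, 139.6 and 157.9 in ethanol and 356.3, 401 and 391.2 in oligomycin. Again no array of oligomycin fell within the ethanol range of its time. IVD rose from 121 ± 28.8 to 210.3 ± 26.0 at 1 h (log2 change 0.74 ± 0.14, adjusted p = 0.0109) and from 156 ± 16.0 to 383 ± 23.5 at 4 h (1.21 ± 0.14, adjusted p = 2.59e-05). The difference between these effects was 0.47, with a 95% interval of 0.036 to 0.91, and was not called (adjusted p = 0.133), though it was without the first ethanol replicate of 1 h (0.60, adjusted p = 0.0478). The call at 1 h did not hold without the third oligomycin replicate (0.65, adjusted p = 0.0635) or with only the 6 arrays of that time in the fit (adjusted p = 0.0815).

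ETFQO was higher in oligomycin at 4 h and was not called at 1 h. Its intensities at 1 h were 43.5, 51.3 and 48.7 in ethanol and 43.5, 52.3 and 58 in oligomycin, so that the groups overlapped. At 4 h they were 51.1, 59.6 and 45 in ethanol against 111.3, 120.2 and 119.5 in oligomycin, well apart. The log2 change at 1 h was 0.072 ± 0.11, with a 95% interval of -0.16 to 0.30 (adjusted p = 0.815), whereas at 4 h ETFQO rose from 51.9 ± 7.33 to 117 ± 4.95 (0.97 ± 0.11, adjusted p = 1.46e-05). The effect at 4 h exceeded that at 1 h by 0.90 (0.58 to 1.23, adjusted p = 0.00134). Leaving out the second ethanol replicate of 1 h gave changes at that time of 0.90 for MCCA (adjusted p = 0.0172), 0.90 for IVD (0.00157) and 0.11 for ETFQO (0.727).

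**Figure D1:**
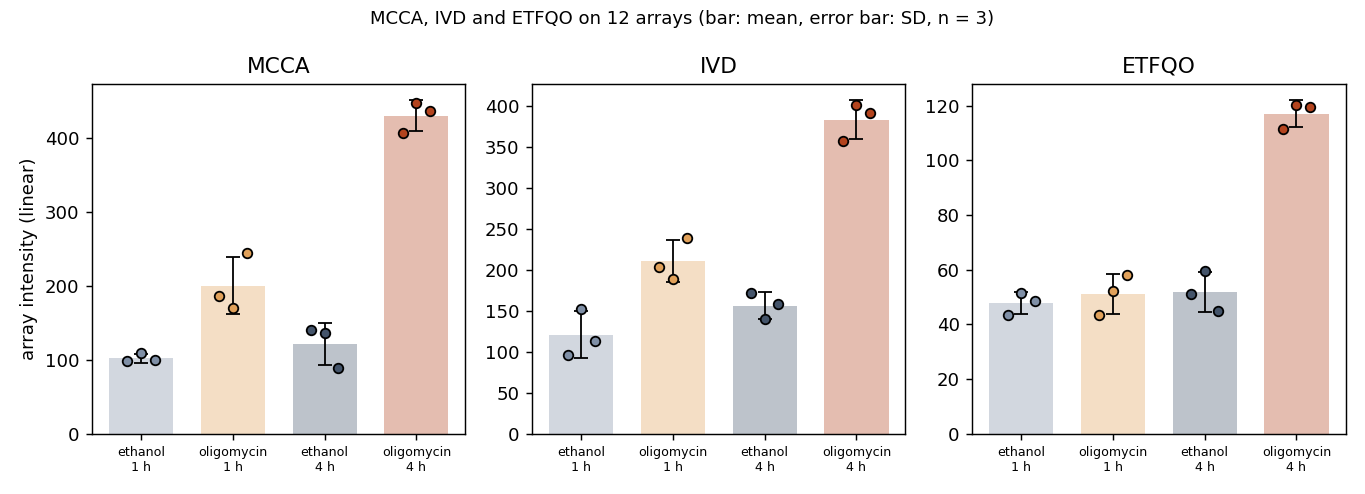
Array intensity (linear axis from 0, separate for each gene) of MCCA, IVD and ETFQO in the 4 groups. Points are the 3 arrays of a group, bars their mean and error bars the SD. MCCA and IVD are above ethanol at 1 h and further above at 4 h, though for IVD the difference between these effects was not called. The ETFQO arrays of 1 h lie between 43.5 and 58 in both treatments and only those of oligomycin at 4 h, from 111.3 to 120.2, stand apart.

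These calls are to be read against how many probe sets were called in all. Because the 3 genes were chosen with earlier results of these data known, their places among all probe sets are a description only. At 1 h 3.44% of the 22746 probe sets tested were called and 2.3% rose, with MCCA and IVD (2 of 3 genes) among the latter. At 4 h 36.7% were called and 11.4% rose, among them all 3 genes. Ordered by log2 change, MCCA lay above 98.8% of probe sets at 1 h and above 97.8% at 4 h, and IVD above 98.5% and 96.2%. ETFQO lay above 75.8% and then above 95.1%. For the difference between the effects of the 2 times 17.8% of probe sets were called and 7.2% upward, MCCA and ETFQO included, and 10.6% downward. Groups that did not overlap, with oligomycin higher, occurred in 6.85% of probe sets at 1 h and 14.5% at 4 h.

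Without the inhibitor the same hours brought no call for any of the 3 genes. In ethanol the log2 change from 1 h to 4 h was 0.20 ± 0.15 for MCCA, 0.35 ± 0.14 for IVD and 0.085 ± 0.11 for ETFQO, with adjusted p values of 0.645, 0.362 and 0.79. Of these limma results only that of IVD had an unadjusted p under 0.05 (0.0288), and its ethanol groups overlapped because the second replicate of 1 h read 152.6. Without that replicate the change of IVD was 0.51 (adjusted p = 0.0882). That of MCCA was 0.38 without ethanol replicate 3 of 4 h and 0.096 without replicate 1, and that of ETFQO 0.16 and 0.0051 without replicates 3 and 2 of 4 h. Over all probe sets 0.00879% were called in ethanol. In the oligomycin cultures, where 33.7% of probe sets were called and 10.8% rose, MCCA rose by 1.06 ± 0.15 (adjusted p = 0.000209), IVD by 0.82 ± 0.14 (adjusted p = 0.000696) and ETFQO by 0.99 ± 0.11 (adjusted p = 1.77e-05) from 1 h to 4 h. The order of the levels was thus ethanol 1 h, ethanol 4 h, oligomycin 1 h and oligomycin 4 h for MCCA and IVD, in which only the ethanol neighbours overlapped. Over all probe sets, the 4 h arrays stood wholly above those of 1 h in 5.07% in ethanol and 14.8% in oligomycin, and wholly below in 9.1% and 31.7%. For ETFQO the 3 lowest groups overlapped and had no order beyond their spread.

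**Figure D2:**
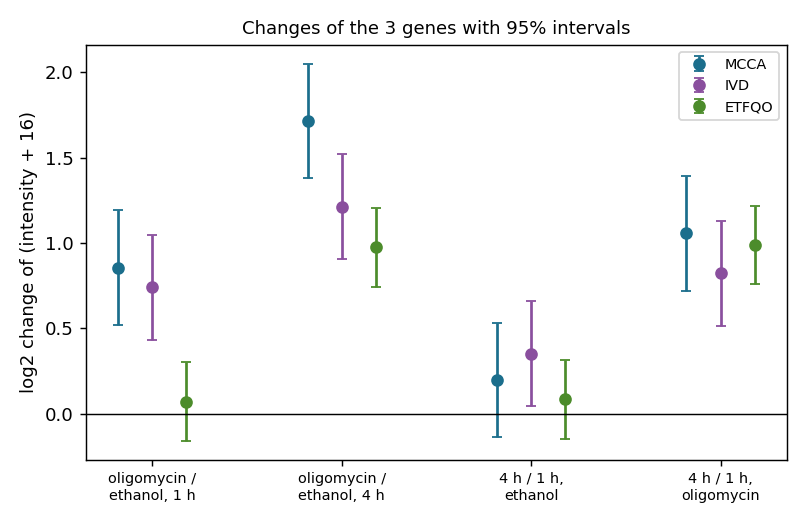
Differences of log2(intensity + 16) for MCCA, IVD and ETFQO in 4 comparisons, as points with 95% intervals from the limma fit. The intervals of MCCA and ETFQO include 0 for time in ethanol, and that of ETFQO also includes 0 for oligomycin against ethanol at 1 h (-0.16 to 0.30).

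The 3 genes did not respond to oligomycin by equal amounts. Averaged over both times, the log2 change of MCCA exceeded that of ETFQO by 0.76 and that of IVD exceeded it by 0.45 (exact two-sided permutation within each time, p = 0.005 for both, the smallest that 400 assignments allow, and p = 0.0075 adjusted over the 3 pairs compared). At 1 h these differences were 0.78 and 0.67, and at 4 h 0.74 and 0.24. The last was 0.12 with a pseudocount of 1 or after quantile normalization, and 0.087 without ethanol replicate 2 of 4 h. MCCA exceeded IVD by 0.31 over both times (exact permutation p = 0.02, adjusted p = 0.02), from 0.11 at 1 h and 0.50 at 4 h. Without ethanol replicate 2 of 1 h the former was -0.0057, and without ethanol replicate 3 of 4 h the latter was 0.31. Within 1 time the exact test cannot go below p = 0.1. The difference between MCCA and IVD lost its call (adjusted p from 0.065 to 0.085, exact permutation) when the second ethanol or the third oligomycin replicate of 1 h, or any of the 3 oligomycin replicates of 4 h, was left out. Leaving out 1 array leaves fewer assignments, but with other arrays left out the same p went as low as 0.005. Over the 12 arrays the log2 values correlated with r = 0.96 for MCCA and IVD, 0.91 for MCCA and ETFQO and 0.88 for IVD and ETFQO. These values carry the differences between the 4 groups, and for deviations from the group means r was 0.42, 0.71 and 0.32. Genes on 1 array share its scaling, so these correlations are given as a description.

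MCCB, the partner of MCCA in the carboxylase, rose at 1 h, as MCCA did, and was not called at 4 h. At 1 h MCCB read 159.2, 154.7 and 168.1 in ethanol and 214.6, 233.1 and 238.4 in oligomycin, without overlap. At 4 h the readings were 176.2, 197.4 and 161.4 in ethanol and 178.7, 186.7 and 169.6 in oligomycin, the latter inside the ethanol range. MCCB rose at 1 h (log2 change 0.47 ± 0.089, adjusted p = 0.0107) and had a change of 0.0032 at 4 h (95% interval -0.19 to 0.20, adjusted p = 0.985). In oligomycin it fell from 229 ± 12.5 at 1 h to 178 ± 8.56 at 4 h (log2 change -0.33, adjusted p = 0.0119, and -0.16 with adjusted p = 0.228 on median-centred arrays). The effect at 4 h was lower than that at 1 h by -0.47 (adjusted p = 0.0228), a call that was lost with arrays centred on their medians (adjusted p = 0.102) or without oligomycin replicate 2 or 3 of 1 h or replicate 3 of 4 h (adjusted p from 0.0505 to 0.0596). The rise at 1 h was not called without the third oligomycin replicate of that time (adjusted p = 0.0602). Within arrays, log2 MCCA minus log2 MCCB lay between -0.76 and -0.30 in ethanol at 4 h and between 1.12 and 1.29 in oligomycin, so the 2 subunit genes changed unequally, a comparison chosen after their values were seen and not tested.

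Of the flavoprotein genes, ETFALPHA fell at 4 h and ETFBETA was not called. ETFALPHA read 132.4, 110.1 and 101.5 in ethanol at 4 h and 96.8, 80.8 and 82.5 in oligomycin, and fell by 0.34 on the log2 scale (adjusted p = 0.0207). This call was lost after quantile normalization (-0.24, adjusted p = 0.0964), with arrays centred on their medians (-0.18, adjusted p = 0.209), with only the 6 arrays of 4 h (adjusted p = 0.0516) and without ethanol replicate 1 or oligomycin replicate 2 or 3 of 4 h (adjusted p from 0.0714 to 0.0936). ETFBETA read 179.2, 215.6 and 187.1 in ethanol and 227.5, 240.2 and 231.8 in oligomycin at 4 h. Its groups did not overlap and its change of 0.25 was not called (adjusted p = 0.0913), though it was with arrays centred on their medians (0.41, adjusted p = 0.0109). From 1 h to 4 h in oligomycin ETFBETA rose by 0.46 (adjusted p = 0.0054). In ethanol it went from between 153.5 and 163.8 to between 179.2 and 215.6, without overlap, a log2 difference of 0.27 that was not called (adjusted p = 0.355), and the difference between the effects of oligomycin at the 2 times was 0.19 (adjusted p = 0.467). D2HGDH, a 2-hydroxyglutarate dehydrogenase that also donates electrons to ETF, fell at 4 h from 96.7 ± 5.56 to 71.9 ± 2.89 (log2 change -0.36, adjusted p = 0.00373, and -0.20 with adjusted p = 0.0901 on median-centred arrays). At 1 h none of these 3 genes was called by limma, and of them only D2HGDH had an unadjusted p under 0.05. At 4 h the median log2 difference over everything tested was -0.099 as deposited and 0.062 after centring, which gave changes of 1.88, 1.37 and 1.14 for MCCA, IVD and ETFQO.

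Log2 ETFQO minus log2 ETFALPHA lay between -1.15 and -0.54 on the 9 arrays of the other groups and between 0.17 and 0.49 in oligomycin at 4 h. For ETFQO minus ETFBETA the ranges were -1.74 to -1.17 and -0.94 to -0.87. The oligomycin arrays of 4 h therefore stood outside all the others in both differences, which were looked at after the values were known and not tested.

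**Figure D3:**
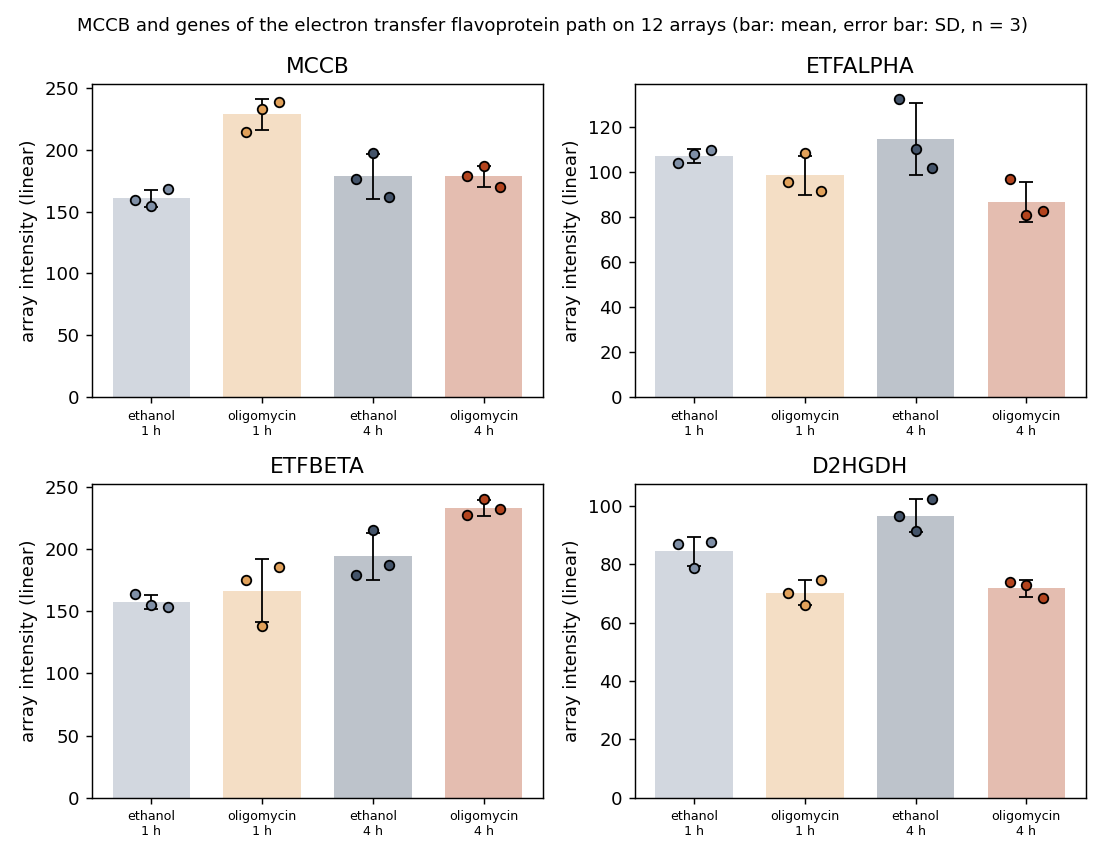
Array intensity (linear axis from 0, separate for each gene) of MCCB, ETFALPHA, ETFBETA and D2HGDH in the 4 groups, with points for the 3 arrays, bars for means and error bars for SD. MCCB is highest in oligomycin at 1 h (214.6 to 238.4) and within the ethanol range at 4 h, and at 4 h ETFALPHA and D2HGDH are lower in oligomycin than in ethanol on all arrays.

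Across a wider list, MCCB alone rose among the other measured breakdown genes at 1 h, and none did at 4 h. The list covers branched-chain amino acids and not leucine alone, so its counts do not describe the leucine route by itself. Of 18 genes listed for branched-chain amino acid breakdown 9 had a probe set of their own. The tables used here gave none to the aminotransferase genes BCAT1 and BCAT2 or to DIN4, BCDHB1 and BCE2 of the ketoacid dehydrogenase. Nor did BKDE1A1, MTLPD1, MTLPD2 and CHY1 have one, and none of these genes was analysed. AT5G09300, which was measured, is entered in that list as an E1 alpha subunit of the ketoacid dehydrogenase. At 1 h 3 of the 9 rose and none fell (MCCA, IVD and MCCB), against the 2.3% and 1.14% of all probe sets. MCCA and IVD had been chosen with earlier results of these data known, and of the other 7 genes 1 rose and none fell. Without the third oligomycin replicate of 1 h 1 of 9 was called. At 4 h 2 rose (MCCA and IVD), 2 fell and 5 were not called, against 11.4% rises and 25.3% falls among all probe sets. Of the 7 genes besides MCCA and IVD, none rose and 2 fell. The median log2 change of the 9, MCCA and IVD included, was 0.059 at 1 h and 0.0032 at 4 h, beside -0.044 and -0.099 for all probe sets. In ethanol none of the 9 was called by limma between 1 h and 4 h, and 2 had an unadjusted p under 0.05.

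The 2 that fell at 4 h are given by locus, because the probe and gene tables hold no name for them. AT5G09300 read 51.4, 42.3 and 52.8 in ethanol and 21.1, 22.7 and 12.4 in oligomycin (log2 change -0.91 ± 0.13, adjusted p = 0.000179). AT4G16800 read 133.7, 143.9 and 134.3 in ethanol and 89.5, 114.1 and 95.4 in oligomycin (log2 change -0.41 ± 0.10, adjusted p = 0.00726, and -0.25 with adjusted p = 0.0925 on median-centred arrays). Both were lower in every oligomycin array than in any ethanol array of 4 h, as were 32.3% of all probe sets, and neither was called at 1 h. The effect on AT5G09300 was lower at 4 h than at 1 h by -0.74 (adjusted p = 0.0174).

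The other 4 were not called at either time. ALDH6B2, an aldehyde dehydrogenase, read 482.1 to 623.9 in ethanol and 512.5 to 637.3 in oligomycin at 4 h. AT2G26800 read 115.1 to 129.6 and 134 to 145.9, AT4G31810 read 127.4 to 151.6 and 106.4 to 117.5, and AT4G20930 read 53.7 to 60.4 and 41.3 to 53.3. The 4 h groups of the last 3 did not overlap, with oligomycin higher for AT2G26800 and lower for AT4G31810 and AT4G20930. Over all probe sets 14.5% stood wholly higher in oligomycin at 4 h and 32.3% wholly lower. The log2 changes of these 3 genes, 0.15, -0.29 and -0.23, did not pass the threshold (adjusted p = 0.299, 0.112 and 0.234). AT2G26800 was called on median-centred arrays (0.31, adjusted p = 0.0371) and AT4G31810 with only the 6 arrays of 4 h (adjusted p = 0.0445).

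**Figure D4:**
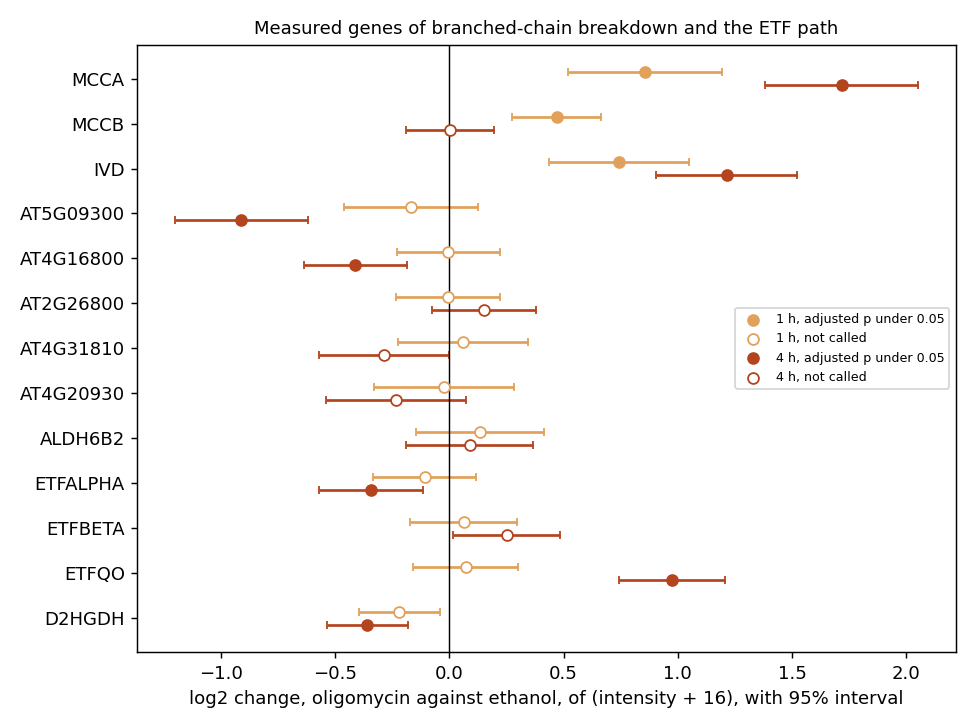
Log2 change of (intensity + 16) in oligomycin against ethanol at 1 h and 4 h for the 13 measured genes of the breakdown and flavoprotein lists, with 95% intervals. Filled points have adjusted p under 0.05. MCCA, IVD and ETFQO lie at 0.97 or higher at 4 h, and the other 10 lie between -0.91 and 0.25.

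Neighbouring routes also held single genes that rose at 4 h. For the breakdown of other amino acids 5 of 23 listed genes were measured, none was called by limma at 1 h (1 had an unadjusted p under 0.05), and at 4 h 2 rose and 1 fell, beside 11.4% rises and 25.3% falls among all probe sets. MGL, methionine gamma-lyase, rose from 125 ± 18.4 to 458.5 ± 35.6 (log2 change 1.76, adjusted p = 1.23e-06), and AT5G38710 from 23.5 ± 1.46 to 64.5 ± 2.92 (1.03, adjusted p = 7.05e-06). AT4G33150, the bifunctional LKR/SDH enzyme of lysine breakdown, fell from 319 ± 56.3 to 176 ± 12.2 (-0.79, adjusted p = 0.000857). DELTA-OAT and ALDH7B4 were not called at 4 h (adjusted p = 0.84 and 0.0523), though ALDH7B4 was called with only the 6 arrays of 4 h, an intensity trend with a robust prior, median-centred arrays, the dimmest 40% left out or without ethanol replicate 2 of 4 h (adjusted p from 0.00715 to 0.0486).

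Of 17 genes listed for the synthesis of leucine and the other branched-chain amino acids, 4 were measured, and 1 rose and 2 fell at 4 h. For these few genes and for the ubiquinone and electron entry genes, the shares among all probe sets at 4 h were again 11.4% rises and 25.3% falls. AT2G31810 rose at 1 h from 298 ± 30.4 to 440.3 ± 46.2 (0.54, adjusted p = 0.0185) and at 4 h from 292 ± 31.4 to 946 ± 65.7 (1.65, adjusted p = 2.19e-07), while AT3G58610 and AT3G23940 fell at 4 h by 0.38 and 0.53 on the log2 scale (adjusted p = 0.00565 and 0.000895). The 1 h call of AT2G31810 was lost with only the 6 arrays of that time, with a pseudocount of 1 or without the first ethanol, the third ethanol or the third oligomycin replicate (adjusted p from 0.0577 to 0.0982). The 4 h call of AT3G58610 was lost on median-centred arrays (adjusted p = 0.0979). Among 3 measured of 7 listed genes for ubiquinone synthesis, AT2G03690 rose (0.36, adjusted p = 0.0282) and AT5G57300 fell (-0.48, adjusted p = 0.00132) at 4 h. The call of AT2G03690 was lost with only the 6 arrays of 4 h, with a pseudocount of 1 or without ethanol replicate 1 or 3 or oligomycin replicate 3 of 4 h (adjusted p from 0.0508 to 0.13). Of 5 measured genes of 8 listed for other electron entry to ubiquinone or cytochrome c, AT5G38710 alone was called at 4 h. Under 1 or 2 alternatives each, SDH1-1 (-0.31) and GLDH (-0.37) passed the threshold as falls and SDH1-2 (0.32) as a rise (adjusted p from 0.0274 to 0.0363). SDH1-2 was very dim, with 4 h means of 0.83 in ethanol and 2.83 in oligomycin. Besides MCCA, which that list leaves out, the only measured gene of the list for biotin enzymes was MCCB. For peroxisomal beta-oxidation it was AIM1, which was not called (adjusted p = 0.0944 at 4 h, and 0.0178 with only the 6 arrays of that time).

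The genes with the most similar profiles were sought among all those bright enough. Among 5959 single-gene probe sets with a mean intensity of at least 44.7, the median of all, the 5 closest to MCCA over the 12 arrays were AT4G16680, AT3G26470, AT1G02750, AT2G47890 and AT4G20860 (Pearson r of 0.982 to 0.989). Those closest to IVD were AT4G35750, WRKY6, AT1G52200, AT1G30700 and AT5G08240 (r of 0.974 to 0.978), of which WRKY6 encodes a transcription factor. Those closest to ETFQO were AT5G27760, AT5G09570, AT3G55430, AT3G59350 and AT5G35200 (r of 0.986 to 0.990). Log2 differences at 1 h were 0.29 to 1.63 for the MCCA set, 0.56 to 1.79 for the IVD set and 0.17 to 0.34 for the ETFQO set, and at 4 h 0.56 to 3.06, 0.80 to 3.16 and 1.36 to 2.89. The mean intensity of AT1G02750 went from 87.4 to 154 at 1 h and from 108 to 312 at 4 h, that of AT5G27760 from 390 to 461.5 and from 497 to 2089. These profiles were picked for their likeness over arrays that hold the 4 groups, so their direction is no further evidence.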

How the data were processed

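The deposited table held 12 arrays with 22810 probe sets in linear array intensity, between 0 and 6149.7. The submitters' processing notes name RMA, with no version. The values hold 166 zeros and share a 2% trimmed mean near 100.01, which is not the usual form of RMA output, so how the authors scaled the deposited intensity is not known here. After 64 control probe sets were left out, log2(intensity + 16) of 22746 was fitted with limma 3.58.1 in R 4.3.3 (4 group means, 8 residual and 4.14 prior degrees of freedom), with Benjamini-Hochberg adjustment over all probe sets of a comparison. Symbols came from the platform annotation, and loci from the TAIR10.1 gene table, which held the gene of 13436 of 13513 single-gene probe sets. The fit was tested on simulated data. The files give no detection call, batch or scan date, and 3 arrays a group limit the precision. The labels do not say whether a replicate number marks a shared day or batch, and the main fit used no pairing. Deviations of same-numbered arrays correlated between -0.091 and 0.17, above 0.1 for 3 of 18 pairs. Those of differently numbered arrays correlated between -0.17 and 0.12. With 3 arrays a group such values cannot decide whether the arrays were paired. MCCA, IVD, ETFQO and all lists were chosen with earlier results of these data known. Named genes were those 3, every measured gene of the 2 pathway lists, up to 4 called genes of each other list and the 5 likest probe sets of each gene. Alternatives were a replicate block, fewer arrays, other priors, scalings, pseudocounts and filters, and leaving out arrays. Comparisons of promoter and protein sequences were not run, since no sequence table was used here.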

Additional observations from a re-analysis of the deposited data

Results flagged for a closer look

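For 4 genes of the 2 pathway lists the effect of oligomycin differed between 1 h and 4 h by the limma test of the difference itself. It was larger at 4 h for MCCA by 0.86 on the log2 scale (adjusted p = 0.0164) and for ETFQO by 0.90 (adjusted p = 0.00134). For MCCB the effect at 4 h minus that at 1 h was -0.47 (adjusted p = 0.0228, but 0.102 on median-centred arrays and 0.0505 to 0.0596 without oligomycin replicate 2 or 3 of 1 h or replicate 3 of 4 h), and for AT5G09300 it was -0.74 (adjusted p = 0.0174). Over all probe sets 17.8% were called in this comparison.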

How the results depend on the processing

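Of 225 recomputed results for MCCA, IVD and ETFQO 222 kept their side of the threshold and none of the called ones changed direction. The exceptions all concerned IVD. At 1 h its change of 0.74 was not called with only the 6 arrays of that time (adjusted p = 0.0815). Without the third oligomycin replicate of 1 h its change of 0.65 was not called either (adjusted p = 0.0635). The difference between its effects at the 2 times was called without the first ethanol replicate of 1 h (adjusted p = 0.0478). With each array left out in turn, the change at 1 h lay between 0.72 and 0.96 for MCCA, 0.61 and 0.90 for IVD and -3.3e-05 and 0.16 for ETFQO, at 4 h between 1.53 and 1.82, 1.14 and 1.28, and 0.90 and 1.06, and the difference between times for IVD between 0.31 and 0.60. MCCA minus IVD lay between 0.21 and 0.39. The number of breakdown genes called lay between 1 and 3 at 1 h. For time in oligomycin it lay between 3 and 5, in place of 6 of 9 (3 rises and 3 falls), and was 3 on median-centred arrays. Over all probe sets 10.8% rose and 22.8% fell in that comparison. With the replicate block the change of MCCA was 0.86 at 1 h (adjusted p = 0.0196) and 1.72 at 4 h, and no call of the 3 genes changed. Among the other named genes 77 of 2020 recomputed results lost their call and 25 gained one. Over all probe sets 783 were called at 1 h, but 441 with only 6 arrays, 513 with a pseudocount of 1, 521 without the first ethanol and 441 without the third oligomycin replicate. In ethanol 2 were called over time, but 42 without the dimmest 40% and 133 without the second replicate of 1 h, and between 0 and 5 under the other settings. Falls were 68.9% of calls at 4 h, 60.7% after quantile normalization and 47.1% on median-centred arrays.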
